A study of Mus musculus with 384 samples.

Results

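The BCL2 family members described here are 10 genes, Bcl2, Bcl2l1, Bcl2l2, Mcl1, Bak1, Bok, Bcl2l11, Bid, Bad and Bik, which were taken by gene symbol as 10 of the 31617 genes of a table of raw counts. All 10 had counts in all 4 cell lines and all 10 passed the filter on low counts. The count table holds 384 mouse single cells, 96 from each of 4 lines, sequenced by Smart-seq2, a full-length method without molecular identifiers. Levels were read in the 326 cells with at least 3000000 counts. They are given as CPM, counts per 1000000 counts of a cell or of a line's summed cells. RNA alone was measured, and the protein, its activity and cell death were not analysed here.

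FS cells are formative pluripotent stem cells, and 5ar1 and 5ar2 are lines of them kept in AloXR, a serum-free medium with a low dose of activin A, the tankyrase inhibitor XAV939 and BMS493, an inverse agonist of retinoic acid receptors. EpiSCs are primed pluripotent stem cells. The EpiSC line AFX6 was kept in AFX, with a higher dose of activin A, Fgf2 and XAV939, and the EpiSC line AF32 in AF, with activin A and Fgf2 but no XAV939. All lines grew in N2B27 on fibronectin and carried no transgene named in the labels. A line is 1 culture of 1 derivation and is the replicate, so FS cells and EpiSCs were compared as 2 lines against 2, and each EpiSC medium had 1 line, so that line and medium cannot be told apart. Of the 96 cells of each line, 90 of 5ar1, 90 of 5ar2, 66 of AFX6 and 80 of AF32 were kept.

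Proteins of the BCL2 family decide whether the outer mitochondrial membrane is opened during apoptosis. Anti-apoptotic members hold the effectors Bax, Bak1 and, in part, Bok in check, and BH3-only members, which carry a single short BH3 domain, either bind the anti-apoptotic members or activate the effectors. Cells that hold much of both kinds are often called primed for apoptosis, and early embryonic pluripotent cells are known for a low threshold to die. Much of this control acts on the proteins, since Mcl1 is turned over quickly, Bid is cleaved by caspases and Bad is phosphorylated.

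Kept cells had between 3022666 and 6686007 counts, so a count of 0 in a cell allows up to 3 counts, which correspond to 0.449 to 0.993 CPM. A cell was therefore said to hold a member at 1 CPM or more, a level above this limit in every kept cell. EpiSCs had fewer detected genes, with medians of 10328 in AFX6 and 10330 in AF32 against 11371 in 5ar1 and 11568 in 5ar2. Pou5f1, the defining pluripotency factor, stood at 490 to 644 CPM in the 4 lines. Summed levels of 5 formative markers were 793 and 690 CPM in the FS lines against 314 and 459 CPM in AFX6 and AF32. Of these 5, 4 were higher in both FS lines, beside 26.6% of all genes tested. The 5 pluripotency markers summed to 1864 to 3732 CPM. Of them, 2 (Sox2 and Dnmt3b) were higher and 1 (Nanog) was lower in both FS lines, beside 26.6% and 21.7% of all genes tested. Nanog stood at 28.5 and 33.5 CPM in 5ar1 and 5ar2 against 159 and 400 CPM in AFX6 and AF32. Naive markers summed to at most 3.73 CPM over 4 genes and neural markers to at most 8.80 CPM over 2 genes in any line. The 5 primitive streak markers summed to 61.4 and 52.0 CPM in 5ar1 and 5ar2, mostly Eomes, to 7.88 CPM in AFX6 and to 54.6 CPM in AF32. Eomes was held at 1 CPM or more by 76 of 90 and 68 of 90 cells of 5ar1 and 5ar2. The AF32 sum was mostly T, of whose counts 1 cell gave 99.1%, with 3 of 80 cells at 1 CPM or more. The 5 extraembryonic markers summed to between 0.00301 and 1.76 CPM, with Gata4, Sox17 and Elf5 at 0 in both EpiSC lines, and Col1a1 and Col3a1 summed to 3.76, 27.8, 4.42 and 0.784 CPM in 5ar1, 5ar2, AFX6 and AF32. The part of other cell types in the members' levels was not tested.

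Promoter sequence was read from RefSeq for 9 of the 10 members, on GRCm38.p6. It is shown for Bok and Bid, whose levels differed most between FS cells and EpiSCs among members above 10 CPM, and for Mcl1, the member held by the most cells. Each stretch lies upstream of the first exon, is written 5′ to 3′ along the gene's own strand, and has the matches to a GC box, GGGCGG or CCGCCC on the other strand, in capitals.
Bok, chr1:93685325-93685574, plus strand: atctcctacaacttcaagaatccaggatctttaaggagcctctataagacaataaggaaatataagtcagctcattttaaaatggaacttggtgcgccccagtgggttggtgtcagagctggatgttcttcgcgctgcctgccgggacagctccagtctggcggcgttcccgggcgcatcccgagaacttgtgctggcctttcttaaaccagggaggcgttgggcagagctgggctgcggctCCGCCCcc
Bid, chr6:120916854-120917074, minus strand: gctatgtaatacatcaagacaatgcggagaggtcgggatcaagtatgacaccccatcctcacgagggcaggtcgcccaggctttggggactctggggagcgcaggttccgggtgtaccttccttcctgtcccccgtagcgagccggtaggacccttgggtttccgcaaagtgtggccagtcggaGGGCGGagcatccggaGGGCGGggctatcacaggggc
Mcl1, chr3:95658471-95658720, plus strand: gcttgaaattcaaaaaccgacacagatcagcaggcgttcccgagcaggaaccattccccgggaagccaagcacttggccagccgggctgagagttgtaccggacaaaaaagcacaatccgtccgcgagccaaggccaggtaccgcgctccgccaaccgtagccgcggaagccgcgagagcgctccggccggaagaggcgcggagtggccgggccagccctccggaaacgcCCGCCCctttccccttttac
A GC box occurred in the 250 bases before 8 of the 13 starts of these 9 members, those of Bcl2, Bcl2l2, Mcl1, Bok, Bcl2l11, Bid and Bad, and in 32.7% of all 32851 RefSeq promoter windows of that length. The Bid window held 3 of them, the last of which runs into the first exon of the GENCODE model and is not shown. CCAAT, or ATTGG on the other strand, occurred before 3 of the 13 starts, of Bcl2l11 and Bad, and in 33.8% of all windows. CACGTG, found in 6.02% of all windows, and TATAAA or TTTATA, found in 12.4%, occurred in none of the 13 member windows. These matches describe letters only.

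Among the anti-apoptotic members, Mcl1, a short-lived protein that binds Bak1 and Bcl2l11, was the most abundant in CPM in 5ar1, AFX6 and AF32. In 5ar2 Bcl2l1, at 54.1 CPM, was slightly above it. Mcl1 (ENSMUSG00000038612, chr3:95658788-95663176, GRCm38) stood at 83.4 CPM in 5ar1, 53.5 CPM in 5ar2, 82.0 CPM in AFX6 and 37.7 CPM in AF32. One FS line and one EpiSC line were thus high and the other two lower, and the groups overlapped. It was held at 1 CPM or more by 90 of 90 cells (5ar1), 81 of 90 (5ar2), 58 of 66 (AFX6) and 63 of 80 (AF32). In single cells Mcl1 ranged from 1.55 to 289 CPM in 5ar1 with a median of 72.5 CPM, and from 0 to 158 CPM in AF32 with a median of 27.8 CPM.

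Bcl2l1, which encodes Bcl-xL, stood at 54.8 CPM in 5ar1, 54.1 CPM in 5ar2, 46.8 CPM in AFX6 and 33.0 CPM in AF32. Both FS lines lay above both EpiSC lines, although 5ar2 exceeded AFX6 by little. Cells at 1 CPM or more were 87.8% of 5ar1 (95% confidence interval 79.2 to 93.7%) and 86.7% of 5ar2 (77.9 to 92.9%), against 54.5% of AFX6 (41.8 to 66.9%) and 60.0% of AF32 (48.4 to 70.8%). Among the cells that held it, the median level was 80.2 CPM in AFX6, above the 52.1 and 54.9 CPM of 5ar1 and 5ar2, and 41.9 CPM in AF32. Bcl2l1 (ENSMUSG00000007659) lies at chr2:152780668-152831728 on the minus strand.

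Bcl2 and Bcl2l2 were scarce. Bcl2 (ENSMUSG00000057329, chr1:106538178-106714274), the founding member of the family, stood at 4.38 CPM in 5ar1, 12.2 CPM in 5ar2, 11.2 CPM in AFX6 and 5.32 CPM in AF32. It differed more within each state than between the states, and was held by 23.3, 50.0, 31.8 and 15.0% of the cells of these lines in turn. Bcl2l2 (ENSMUSG00000089682, chr14:54883377-54888234), which encodes Bcl-w, was the only member lower in both FS lines, at 2.72 CPM in 5ar1 and 1.55 CPM in 5ar2 against 4.87 CPM in AFX6 and 4.17 CPM in AF32. A single cell of AFX6 gave 39.4% of that line's Bcl2l2 counts. Exons of Gm20521, a record on the same strand, cover 13.3% of the exonic bases of Bcl2l2, and reads there cannot be told apart.

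Bak1 and Bok are the effector-type members of the set. Bak1 (ENSMUSG00000057789, chr17:27019810-27029009), a pore-forming protein of the mitochondrial surface, was the most even member between lines, at 15.3 CPM in 5ar1, 15.5 CPM in 5ar2, 14.4 CPM in AFX6 and 10.8 CPM in AF32. Both FS lines lay above both EpiSC lines, and cells at 1 CPM or more were 90.0 and 92.2% in the FS lines against 72.7 and 72.5% in AFX6 and AF32. Exons of Ggnbp1 on the opposite strand cover 25.5% of the exonic bases of Bak1, and Smart-seq2 does not mark the strand.

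Bok (ENSMUSG00000026278, chr1:93685660-93695764), a relative of Bax and Bak1 that is also found at the endoplasmic reticulum, differed most clearly. It stood at 68.0 CPM in 5ar1, 55.5 CPM in 5ar2, 30.9 CPM in AFX6 and 28.9 CPM in AF32. Both FS lines were high and both EpiSC lines low. Its median over single cells was 54.4 and 47.4 CPM in 5ar1 and 5ar2 but 1.08 and 0.348 CPM in AFX6 and AF32, with highest cells of 327, 254, 137 and 329 CPM. Cells at 1 CPM or more made up 84.4% of 5ar1 (75.3 to 91.2%), 86.7% of 5ar2 (77.9 to 92.9%), 50.0% of AFX6 (37.4 to 62.6%) and 35.0% of AF32 (24.7 to 46.5%).

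The cells that held Bok had medians of 62.4 CPM in 5ar1, 53.5 CPM in 5ar2, 61.7 CPM in AFX6 and 65.7 CPM in AF32, a narrower range than that of the shares. The mean share of cells was 2.01 times higher in FS lines, whereas the mean of these medians was 0.911 times that of EpiSC lines. A cell without a detected transcript may lack it or may have lost it during capture, and these cannot be told apart.

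Among BH3-only members, Bid (ENSMUSG00000004446, chr6:120891930-120916853), which links death receptors to mitochondria once caspases cut it, followed Bok closely. It stood at 60.0 CPM in 5ar1, 54.7 CPM in 5ar2, 30.6 CPM in AFX6 and 23.7 CPM in AF32, again with both FS lines high and both EpiSC lines low. Bid was held at 1 CPM or more by 85.6% of 5ar1 (76.6 to 92.1%), 80.0% of 5ar2 (70.3 to 87.7%), 45.5% of AFX6 (33.1 to 58.2%) and 31.2% of AF32 (21.4 to 42.6%). The cells that held it had medians of 61.5, 53.1, 44.5 and 67.0 CPM in the same order, so that the mean share was 2.16 times and the mean of these medians 1.03 times that of EpiSC lines. One cell of AF32, at 292 CPM, gave 20.1% of that line's Bid counts. Exons of Bcl2l13 on the opposite strand cover 17.7% of the exonic bases of Bid. Bcl2l13 itself stood at 62.5, 64.3, 77.4 and 50.1 CPM in 5ar1, 5ar2, AFX6 and AF32 and its groups overlapped.

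Bcl2l11, which encodes Bim, a binder of all anti-apoptotic members, stood at 32.5 CPM in 5ar1, 25.5 CPM in 5ar2, 23.9 CPM in AFX6 and 19.1 CPM in AF32. Both FS lines were the higher, but 5ar2 and AFX6 were close. It was held by 70.0, 62.2, 50.0 and 38.8% of cells in this order, at medians of 35.4 to 36.7 CPM in FS lines and 43.7 to 46.7 CPM in EpiSC lines. One cell of 5ar1, at 526 CPM, gave 14.3% of that line's counts. Bcl2l11 (ENSMUSG00000027381) lies at chr2:128126038-128162547 on the plus strand.

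Bad (ENSMUSG00000024959, chr19:6941861-6951899), a binder of Bcl2 and Bcl2l1 that growth factor signals keep phosphorylated, had overlapping groups, at 19.7 CPM in 5ar1, 24.2 CPM in 5ar2, 18.5 CPM in AFX6 and 26.8 CPM in AF32. AF32 was highest and AFX6 lowest. Exons of Gpr137 on the opposite strand cover 20.5% of its exonic bases. Bik (ENSMUSG00000016758, chr15:83526862-83544634), a BH3-only protein of the endoplasmic reticulum, stood at 3.99 CPM in 5ar1, 8.44 CPM in 5ar2, 6.41 CPM in AFX6 and 2.12 CPM in AF32. It was held by 51.1% of 5ar2 cells (40.4 to 61.8%) but 12.5% of AF32 cells (6.16 to 21.8%), with 5ar1 at 30.0% and AFX6 at 28.8%.

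**Figure D1:**
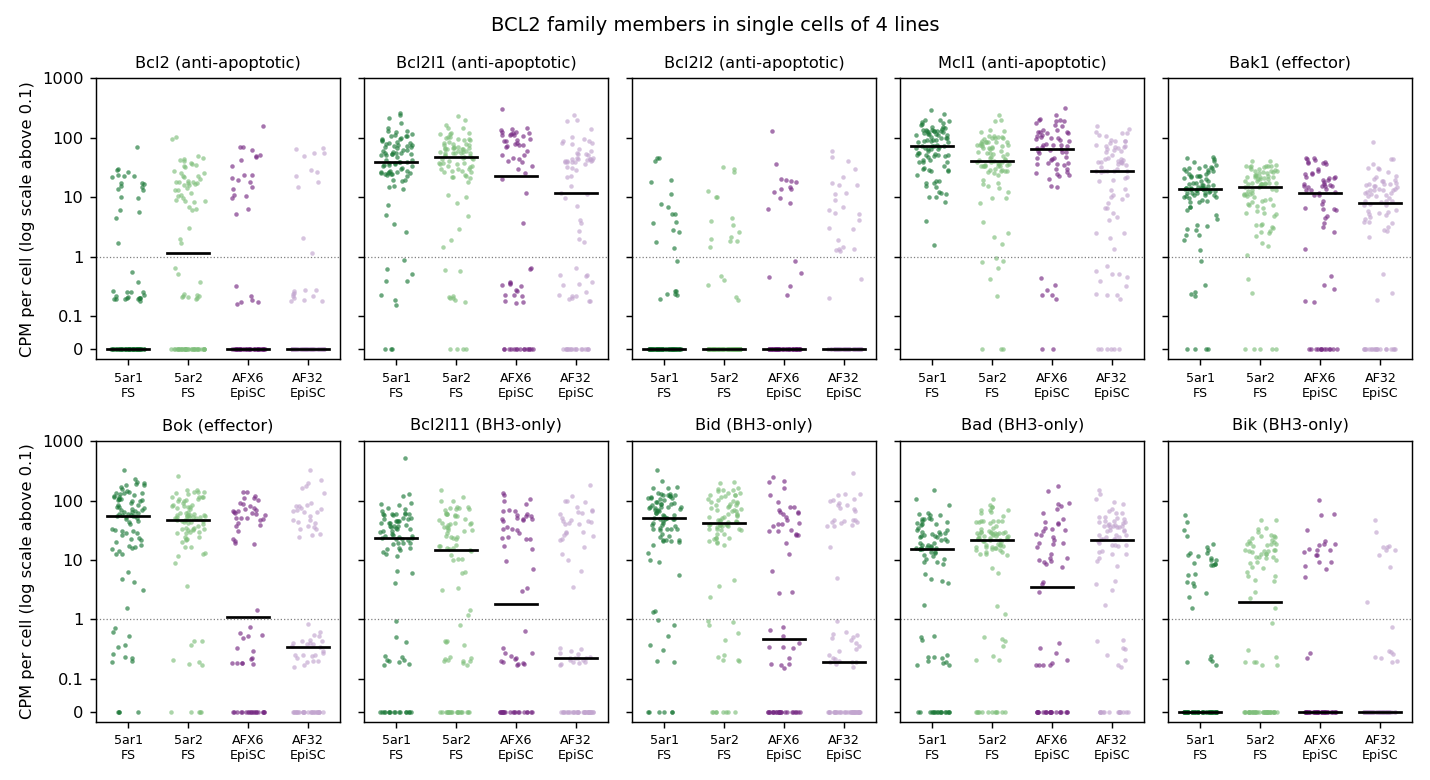
CPM of each member in each kept cell of the 4 lines, on a scale that is logarithmic above 0.1 CPM, with the median of each line as a bar and 1 CPM as a dotted line. For Bok and Bid in AFX6 and AF32 the medians lie near or below 1 CPM, with few cells between 1 and 10 CPM, whereas in 5ar1 and 5ar2 they lie between 41.7 and 54.4 CPM.

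Some cells had counts of a member below 1 CPM, such as 25 of 80 AF32 cells for Bok and 20 of 80 for Bid. Counting every cell with at least 1 count, Bok was found in 95.6, 94.4, 71.2 and 66.2% and Bid in 93.3, 91.1, 63.6 and 56.2% of the cells of 5ar1, 5ar2, AFX6 and AF32. With each cell thinned to 1000000 counts, those shares were 86.7, 88.9, 56.1 and 47.5% for Bok and 85.6, 86.7, 51.5 and 36.2% for Bid. Both genes were thus found in a larger share of cells of either FS line by each of these measures. Over the 10 members the median share of cells was 1.51 times higher in FS lines, against 1.16 times over 16537 genes tested with a cell at 1 CPM in every line, and the median level in cells that held a member was 0.860 times that of EpiSC lines, against 0.784 times over those genes. Shares for all members are in the plot of cells at 1 CPM or more.

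**Figure D2:**
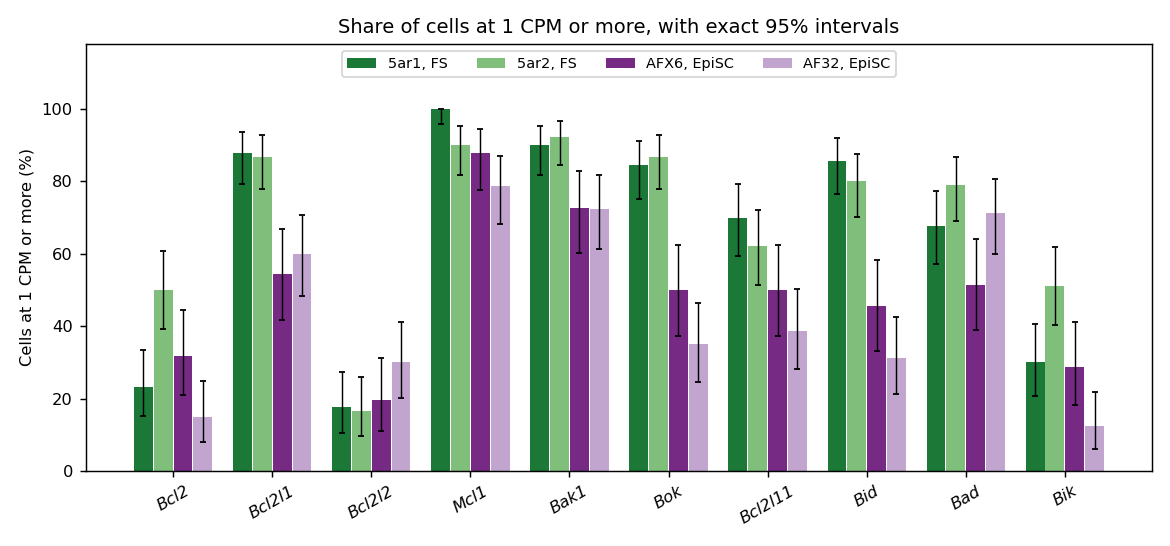
Share of the kept cells of each line with 1 CPM or more of each member, as bars from 0% with exact Clopper-Pearson 95% intervals for counting error. The bars of Bok and Bid are 80.0 to 86.7% in FS lines and 31.2 to 50.0% in EpiSC lines, and only for Bcl2l2 do both FS bars lie under both EpiSC bars.

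Counts summed over each line's cells were compared between FS and EpiSC lines by edgeR's quasi-likelihood test, with Benjamini-Hochberg adjustment over 22606 genes. No gene passed an adjusted p of 0.05 (0 of 22606, 0%), and 3636 genes (16.1%) had an unadjusted p under 0.05. The smallest edgeR adjusted p over all genes tested was 0.19, so genes given below with 0.19 share the lowest value reached. By DESeq2 on the same sums, 2528 genes (11.2%) passed. Of the members, 0 passed by edgeR, 2 had an unadjusted p under 0.05, and 2 passed by DESeq2, in each case Bok and Bid.

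Bok was higher in FS lines by 1.04 ± 0.22 on the log2 scale (SE, 2 lines against 2), 61.8 ± 8.84 CPM against 29.9 ± 1.37 CPM (SD, n = 2 each), with an edgeR adjusted p of 0.19 and a DESeq2 adjusted p of 0.0027. Bid was higher by 1.07 ± 0.24 on the log2 scale, 57.4 ± 3.76 CPM against 27.2 ± 4.89 CPM (SD, n = 2 each), with an edgeR adjusted p of 0.19 and a DESeq2 adjusted p of 0.0055. Among all genes tested, 15.8% had a log2 fold change at least as high as that of Bok and 15.3% one at least as high as that of Bid. Bcl2l2 differed by −1.09 ± 0.57 on the log2 scale, with adjusted p of 0.46 by edgeR and 0.24 by DESeq2. Its lines did not overlap, and it passed neither test.

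For the other 7 members the log2 differences were smaller, between −0.05 for Bad and 0.53 for Bik, with edgeR adjusted p of 0.54 or more. Bcl2l1 differed by 0.44 ± 0.27, Bcl2l11 by 0.42 ± 0.28 and Bak1 by 0.28 ± 0.31 on the log2 scale (SE from the edgeR fit). Mcl1 differed by 0.18 ± 0.48, Bcl2 by −0.01 ± 0.72, Bik by 0.53 ± 0.78 and Bad by −0.05 ± 0.31. None of these 7 passed by either tool. The median over the 10 members was 0.35 on the log2 scale, beside −0.01 over all genes tested.

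By the order of lines, 5 members, Bcl2l1, Bak1, Bok, Bcl2l11 and Bid, were higher in both FS lines, as were 26.6% of all genes tested. One member, Bcl2l2, was lower in both, as were 21.7% of all genes tested. By the share of cells at 1 CPM or more, 7 members were higher and 1 was lower in both FS lines, beside 45% and 8.02% of all genes tested. In the cells with at least 10000 detected genes, these counts were 5 and 1 members, beside 37.6% and 8.42% of all genes. Of those cells, 55.6% in AFX6 and 37.1% in AF32 held Bok, and 51.1 and 32.3% held Bid, against 85.4 and 86.7% for Bok and 86.5 and 80.0% for Bid in 5ar1 and 5ar2.

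**Figure D3:**
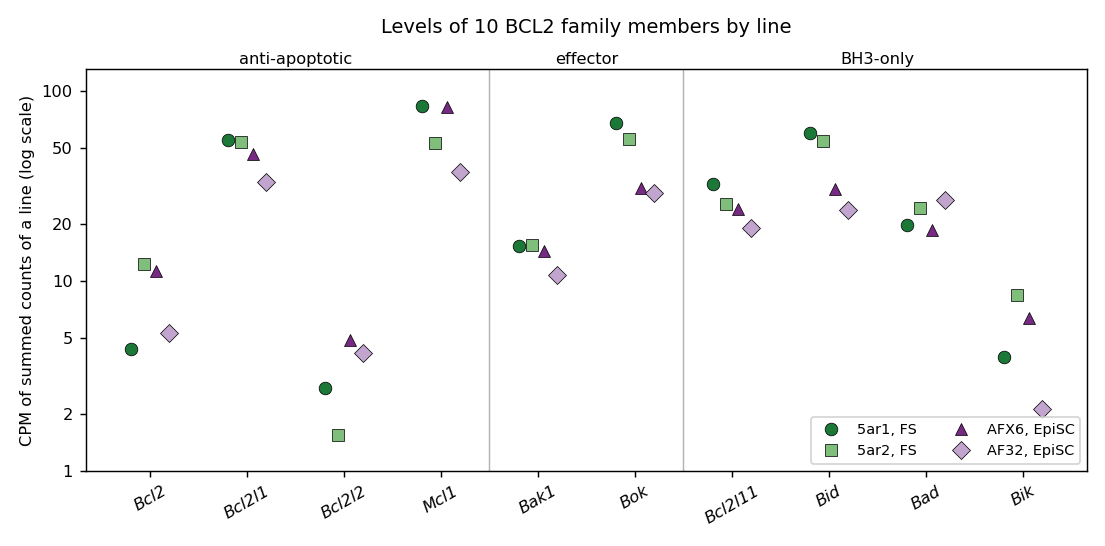
CPM of the summed counts of each line for each member, on a log scale, 1 symbol per line without error bars. FS symbols lie clear of EpiSC symbols for Bok and Bid, at 54.7 to 68.0 CPM against 23.7 to 30.9 CPM, while for Bcl2, Mcl1, Bad and Bik the lines of the states interleave.

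Levels of different genes were compared per kb of exonic length. Bok was highest in 3 of 4 lines, at 37.0, 30.2 and 15.7 CPM per kb in 5ar1, 5ar2 and AF32, and came next to Mcl1 in AFX6, at 16.8 against 24.0 CPM per kb. Mcl1 stood at 24.4, 15.6 and 11.0 CPM per kb in 5ar1, 5ar2 and AF32, and Bid at 16.9, 15.4, 8.63 and 6.68 CPM per kb in 5ar1, 5ar2, AFX6 and AF32. Bcl2l1, Bad and Bak1 stood at 4.49 to 12.0 CPM per kb. Of these, Bcl2l1 exceeded Bid in AFX6, at 10.2 CPM per kb, and Bad and Bcl2l1 exceeded Bid in AF32, at 10.48 and 7.19 CPM per kb. Bik and Bcl2l11 stood at 1.33 to 5.30 CPM per kb. Bcl2 and Bcl2l2 were last in every line, at 0.347 to 1.34 CPM per kb, and their order to each other differed between lines.

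Summed by role, the 4 anti-apoptotic members made up 37.4, 29.1, 36.5 and 19.7 CPM per kb in 5ar1, 5ar2, AFX6 and AF32. Both effectors together made up 43.3, 36.6, 22.8 and 20.2 CPM per kb, and the 4 BH3-only members 31.2, 33.3, 22.9 and 20.9 CPM per kb, in the same order. Over these members alone, the effector and BH3-only sums were higher in both FS lines, and the anti-apoptotic sum was not. The ratio of the BH3-only to the anti-apoptotic sum was 0.832 and 1.15 for 5ar1 and 5ar2, and 0.626 and 1.06 for AFX6 and AF32, so each state had a line above and a line below 1. In single cells the BH3-only sum was the larger in 36 of 90 cells (5ar1), 52 of 90 (5ar2), 21 of 66 (AFX6) and 42 of 80 (AF32). These sums and ratios weigh RNA alone and cover the listed members only. Bax is not in the effector sum, and Bbc3 and Bmf are not in the BH3-only sum. Bbc3, another BH3-only gene, stood at 44.7, 44.5, 90.5 and 34.9 CPM in 5ar1, 5ar2, AFX6 and AF32. In AFX6 it exceeded each of the 4 BH3-only members and stood above both FS lines. The higher BH3-only sum of the FS lines therefore describes the 4 listed members alone. It need not hold with Bbc3 and Bmf included, which was not tested.

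A cell of 5ar1 held a median of 7 of the 10 members at 1 CPM or more, as did a cell of 5ar2. The median was 5 members for cells of AFX6 and 4 members for those of AF32. In cells with at least 10000 detected genes the medians were 7, 7, 5 and 5 for 5ar1, 5ar2, AFX6 and AF32. EpiSCs had fewer detected genes, and 45% of all genes tested were held by a larger share of cells in both FS lines. Single cells held 4 to 9 members (5ar1), 1 to 10 (5ar2), 0 to 9 (AFX6) or 1 to 8 (AF32). Both effectors were held by 70 of 90 cells of 5ar1 and 72 of 90 of 5ar2, but by 28 of 66 cells of AFX6 and 20 of 80 of AF32. Neither was held by 3, 1, 13 and 14 cells in this order, and all of these cells but 1 of AF32 held Bax.

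Neither Bcl2l1 nor Mcl1 reached 1 CPM in 0 of 90 cells of 5ar1, for which the exact interval reaches 4.02%. The same held for 1 cell of 90 in the 5ar2 line, for 6 of 66 AFX6 cells and for 7 of 80 AF32 cells. Both were held by 79, 70, 34 and 38 cells in this order. None of the 4 BH3-only members was held by 1 cell of 5ar1 and 1 of 5ar2, against 12 of 66 cells of AFX6 and 8 of 80 of AF32. All 4 were held by 12 and 20 cells of 5ar1 and 5ar2, by 4 of AFX6 and by 0 of AF32.

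**Figure D4:**
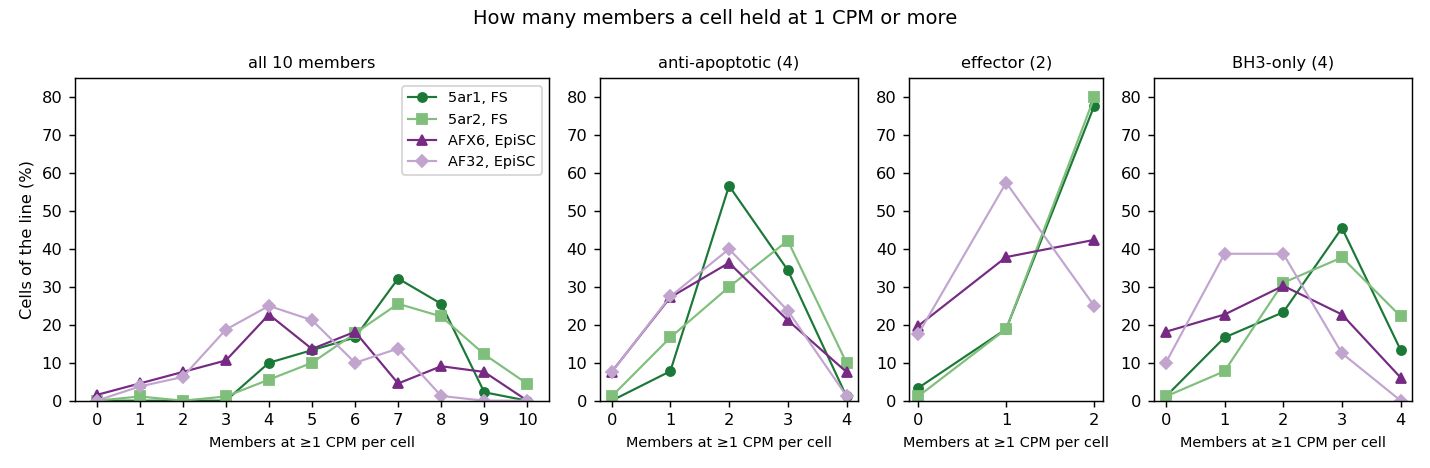
Share of the kept cells of each line (%) that held a given number of members at 1 CPM or more, for all 10 members and by role, 1 line of symbols per cell line without error bars. The curves of 5ar1 and 5ar2 peak at 7 members and those of AFX6 and AF32 at 4, and both effectors were held by 77.8 and 80.0% of FS cells against 42.4 and 25.0% of EpiSCs.

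Members varied largely apart from each other within a line. Over the 45 pairs of members, Spearman's rho between cells ranged from −0.27 to 0.29 in any line, with medians of 0.01 to 0.05. These cells share library preparation and depth, and counts are sparse, so the values are descriptive. With the number of detected genes of a cell, rho ranged from −0.12 to 0.35, and for Bcl2 it was 0.19, 0.30, 0.35 and 0.35 in 5ar1, 5ar2, AFX6 and AF32.

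Between the EpiSC lines, 3 of 10 members were at least 2-fold lower in AF32 than in AFX6, beside 13.7% of 19015 genes. Bik was 3.03 times higher in AFX6 (exact conditional 95% interval 2.79 to 3.29), Mcl1 2.18 times (2.13 to 2.22) and Bcl2 2.11 times (2.00 to 2.23). Bad was higher in AF32, by 0.54 on the log2 scale (0.49 to 0.58). No member was at least 2-fold higher there, beside 15.8% of genes. In summed counts Bok differed least, 1.07 times (1.04 to 1.10) higher in AFX6. On medians over single cells the log2 difference of AF32 to AFX6 was −1.63 for Bok, −3.00 for Bcl2l11 and 2.65 for Bad. The AF32 medians of Bok and Bcl2l11, 0.348 and 0.226 CPM, lie under the limit of 1 CPM, so the sizes of their differences are not reliable. In summed counts the log2 differences were −0.09 for Bok and −0.32 for Bcl2l11. One cell gave 23.5% of the Bik counts of AFX6 and 28.0% of those of AF32. For Bcl2 these shares were 16.0% and 22.2%, and for Mcl1 6.39% and 6.63%. The intervals cover counting error only, and with 1 line per medium there is no test.

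Between the FS lines, which share a medium, Bcl2 was 2.79 times (2.65 to 2.94) and Bik 2.12 times (2.00 to 2.24) higher in 5ar2, the 2 members past 2-fold, beside 9.63% of 20986 genes. No member was at least 2-fold lower in 5ar2, beside 10.3% of genes, and Mcl1 was 1.56 times (1.53 to 1.58) higher in 5ar1. Bcl2l1, Bak1 and Bid differed by at most 1.10 times between the FS lines. Bcl2 and Bik, which set AFX6 apart from AF32, thus also set 5ar2 apart from 5ar1 in the same medium. One cell gave 21.0% of the Bcl2 counts of 5ar1 and 10.6% of those of 5ar2. For Bik these shares were 15.2% and 7.17%, and its level relative to its chromosome is given below.

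Cells of a line differed in the relative expression of whole chromosomes. In AF32, 29 of 80 cells had a relative expression of chromosome 2 above 1.2, computed without the member itself. Bcl2l1 stood at 54.1 CPM in these cells and at 20.8 CPM in the other 51, a ratio of 2.60, with medians of 40.7 and 3.69 CPM and 20 of 29 against 28 of 51 cells at 1 CPM or more. Of 558 other genes of chromosome 2, the median ratio was 1.47, and 5.20% had a ratio at least as high as that of Bcl2l1. Levels ranged from 0 to 245 CPM in the raised and from 0 to 94.7 CPM in the other cells, so the cells overlapped, and median detected genes were 10329 and 10332. With each cell's level divided by this relative expression, Bcl2l1 stood at 29.0 CPM in AF32.

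Bcl2l11, on the same chromosome, stood at 22.4 and 17.2 CPM in the same cells, a ratio of 1.31 that 67.0% of the chromosome's genes reached. In 5ar2, 52 of 90 cells had chromosome 19 raised, and Bad stood at 30.2 CPM in them against 16.0 CPM in the other 38. That ratio of 1.89 was reached by 12.1% of 248 genes of the chromosome, whose median was 1.51. With each cell's level divided by the relative expression of chromosome 19, Bad stood at 21.1 CPM in 5ar1 and 20.3 CPM in 5ar2, so that the order of the FS lines turned. In AF32, where 18 of 80 cells had chromosome 19 raised, Bad stood at 24.0 CPM in them and at 27.6 CPM in the other 62. In 5ar2, 11 of 90 cells had chromosome 15 raised, and Bik stood at 15.4 CPM in them against 7.45 CPM in the other 79. That ratio of 2.06 was reached by 1.40% of 285 genes of the chromosome. Divided by the relative expression of chromosome 15, Bik stood at 4.13 CPM in 5ar1 and 7.38 CPM in 5ar2. The log2 difference was then 0.84, which is under 2-fold. These splits lie within a line and are given without a test, and whether DNA copies differed was not tested.

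**Figure D5:**
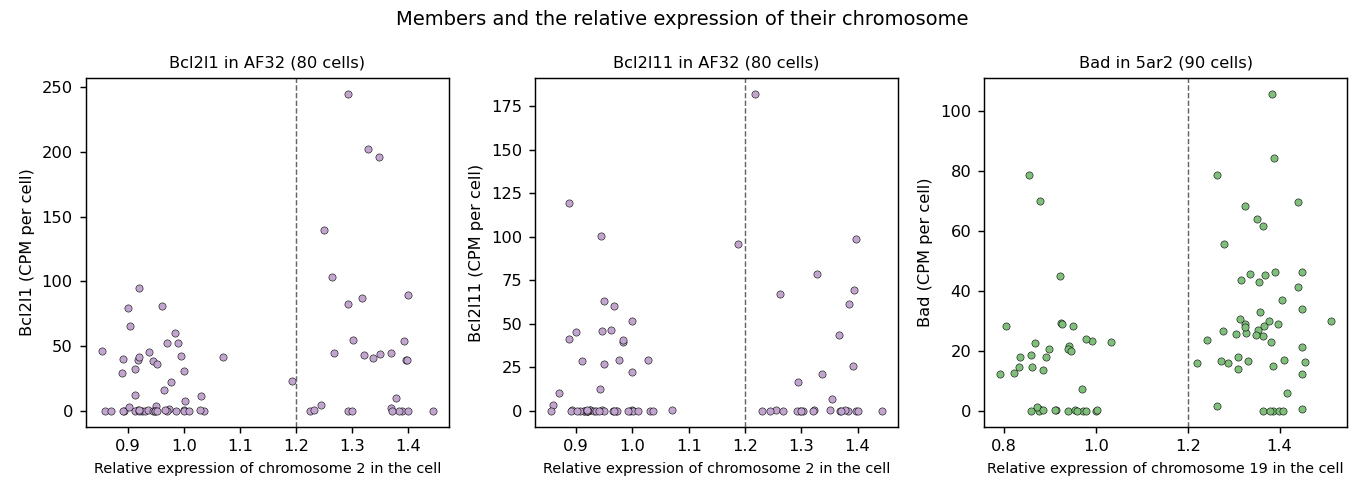
CPM of Bcl2l1 and Bcl2l11 in cells of AF32 and of Bad in cells of 5ar2 against the relative expression of the chromosome that carries the gene, with the limit of 1.2 as a dashed line and 1 point per cell. Cells fall on both sides of the limit, and the 3 highest Bcl2l1 cells of AF32 lie above it.

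Other members of the family were described from a list of 13 genes, of which 9 were in the table and 6 were tested. Of these 6, 0 passed by edgeR, 2 had an unadjusted p under 0.05, beside 16.1% of all genes tested, and 2 passed by DESeq2 (Bmf and Hrk), beside 11.2%. In both FS lines 2 were higher (Bax and Hrk) and 1 was lower (Bmf), beside 26.6% and 21.7% of all genes tested. Hrk, near 0 in both EpiSC lines, passed the filter on low counts only through the FS lines, where it is high. Its place in these counts is therefore no evidence of a difference. The median log2 difference was 0.05, beside −0.01 over all genes. Bax, the main pore-forming effector, exceeded every one of the 10 members, at 278 CPM in 5ar1, 299 CPM in 5ar2, 240 CPM in AFX6 and 170 CPM in AF32, and was held by every kept cell of 5ar1, 5ar2 and AFX6 and by 79 of 80 of AF32. Its log2 difference was 0.48 ± 0.24 with an edgeR adjusted p of 0.45.

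Bbc3, the BH3-only gene that encodes Puma, stood at 44.7, 44.5, 90.5 and 34.9 CPM in 5ar1, 5ar2, AFX6 and AF32, so that AFX6 alone stood out. Bmf, a BH3-only gene tied to the cytoskeleton, stood at 3.39, 1.35, 5.97 and 16.0 CPM, and was lower in both FS lines, with a log2 difference of −2.21 ± 0.77 and adjusted p of 0.29 by edgeR and 0.032 by DESeq2. It was held by 5 to 13 cells of a line, and 1 cell gave 19.6 to 39.7% of a line's counts. Bcl2l12 stood at 9.63, 13.4, 8.63 and 12.7 CPM, with overlapping groups. The others, chosen for mention after their values were seen, were near 0, with Pmaip1, Bcl2l14 and Bcl2l15 at most 0.718 CPM and Hrk at 1.14 and 0.878 CPM in 5ar1 and 5ar2, 0.00601 CPM in AFX6 and 0 in AF32. In the cells of AF32, 0 of 80 with Hrk allows a share of up to 4.51%.

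Genes of the steps around and after the mitochondria were counted by list, each to be read beside the 26.6% of all genes tested that were higher and the 21.7% that were lower in both FS lines. No gene of these lists passed by edgeR. Of 8 apoptosome genes and caspases, 1 was higher (26.6% of all genes) and 3 were lower (21.7%) in both FS lines. Cycs, cytochrome c, stood at 186, 226, 124 and 59.0 CPM in 5ar1, 5ar2, AFX6 and AF32, while Apaf1, its partner in the apoptosome, stood at 13.8, 8.54, 32.3 and 16.3 CPM and Casp8, the death receptor caspase that cuts Bid, at 11.9, 13.6, 18.8 and 31.3 CPM. Of the 4 released mitochondrial factors, 3 were higher (26.6% of all genes) in both FS lines and 1, Diablo, was lower (21.7%). Htra2, a protease among them, stood at 55.6, 49.3, 25.7 and 28.3 CPM, with a log2 difference of 0.95 ± 0.20 and adjusted p of 0.19 by edgeR and 0.0031 by DESeq2. Aifm1 stood at 110.0, 89.3, 75.2 and 66.7 CPM and Endog at 16.4, 15.4, 10.9 and 9.59 CPM.

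Of the 5 inhibitors of apoptosis, 2 were higher and 2 lower in both FS lines, beside 26.6% and 21.7% of all genes tested. Birc2 stood at 50.0, 42.5, 91.4 and 97.1 CPM in 5ar1, 5ar2, AFX6 and AF32, with a log2 difference of −1.03 ± 0.19 and adjusted p of 0.19 by edgeR and 0.00039 by DESeq2. Xiap, the caspase inhibitor, stood at 32.1, 33.7, 40.3 and 53.6 CPM and Birc3 at 8.57, 3.72, 1.64 and 2.79 CPM. Of 8 death receptors and adaptors, 3 were higher and 1 was lower in both FS lines, beside the same 26.6% and 21.7%. The adaptor Fadd stood at 8.25, 8.07, 1.82 and 6.37 CPM, Tradd at 3.76, 2.61, 3.96 and 14.2 CPM, and Ripk3 at 11.9, 7.82, 0.619 and 0.00843 CPM. Ripk3 passed by DESeq2, with an adjusted p of 0.01, and not by edgeR, with 0.35.

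Of 11 partners and turnover genes of the members, 3 were higher and 2 lower in both FS lines, shares near the 26.6% and 21.7% of all genes tested. Dynll1, a dynein light chain that binds Bcl2l11 and Bmf proteins, stood at 559, 619, 247 and 332 CPM in 5ar1, 5ar2, AFX6 and AF32, with a log2 difference of 1.02 ± 0.20 and adjusted p of 0.19 by edgeR and 0.0035 by DESeq2. Vdac1, a channel of the outer mitochondrial membrane, stood at 613, 500, 844 and 1239 CPM, with adjusted p of 0.21 by edgeR and 0.030 by DESeq2. Fbxw7, part of a ubiquitin ligase for Mcl1, stood at 20.9, 11.5, 8.49 and 8.99 CPM. Of 5 regulators of BH3-only genes, 1 was higher and 1 was lower in both FS lines, beside 26.6% and 21.7% of all genes. Trp53, which encodes p53, was higher in both FS lines, at 446, 510, 226 and 166 CPM, with a log2 difference of 1.28 ± 0.24 and adjusted p of 0.19 by edgeR and 0.00054 by DESeq2. Foxo3, a regulator of Bcl2l11 and Bbc3, was lower in both FS lines, at 23.6, 32.1, 38.0 and 42.8 CPM, and was not called by either tool.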

How the data were processed

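Single cells of FS lines 5ar1 and 5ar2 and EpiSC lines AFX6 and AF32 were sorted 1 per well and sequenced by Smart-seq2. The authors aligned reads with STAR 2.7.3a to GRCm38.p6 and counted uniquely mapped reads per gene with featureCounts 2.0.0, and deposited these raw counts. They also deposited an sctransform score, a depth-corrected value in whole numbers, used here for an alternative only. Samples were grouped by the line named in their labels. Coordinates, symbols and exonic lengths came from GENCODE M21 (GRCm38), which held records for 31565 of 31617 genes. No pair of cells had identical counts, and 0 sample columns were left unused.

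Cells with at least 3000000 counts were kept, as the authors did. Shares carry exact Clopper-Pearson 95% intervals (scipy 1.17.1), and folds of summed counts between single lines exact conditional 95% intervals. As PCR copies were not marked, reads do not stand for separate molecules, and these intervals and the floor of 3 counts cover counting error only. Counts summed per line entered the quasi-likelihood test of edgeR 4.0.16 in R 4.3.3 over all genes kept by filterByExpr. TMM scaling, Benjamini-Hochberg adjustment and a threshold of 0.05 were used. The model was first run on simulated counts, whose dispersion, the spread beyond counting error, was always below the 0.653 of these data. That run therefore does not show how the test performs at the spread of these data. SEs were the log2 fold change over the root of the F value. DESeq2 1.42.0, limma 3.58.1 and other settings were alternatives. Nothing states that the lines came from separate litters, so p-values measure the spread between these lines.

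Relative expression of a chromosome is the mean over its protein-coding genes of at least 20 CPM, each divided by its mean over kept cells and set to at most 3, divided by the median of the 19 autosomes. Motifs were searched on both strands of the 250 bases before each RefSeq start.

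The 10 members, the lists of related genes and the markers were chosen with earlier results of these data known. All members are named. So is each other family gene with at least 5 CPM in a line and, from each other list, up to 3 genes with the largest fold between states among those with at least 5 CPM and lines that do not overlap. Bcl2a1a, Bcl2a1b, Bcl2a1d, Bcl2l10, Casp12, Zfp42, Cdx2 and Ptprc were not analysed here.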

Additional observations from a re-analysis of the deposited data

How the results depend on the processing

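No paired analysis was possible because the numbers in the sample names number cells and do not pair lines. DESeq2 called 2528 genes and 2 members, Bok and Bid, where edgeR, also with DESeq2 size factors, without the filter on low counts, with each line left out in turn and in each other set of cells, and limma called 0 genes. Of the members, 5 were higher and 1 was lower in both FS lines. With cells of at least 4000000 counts 3 were higher (Bcl2l1, Bok and Bid), and without 1 line in turn 5 to 7 were higher and 1 to 2 lower. Bak1 no longer stood above both EpiSC lines with at least 4000000 counts, with protein-coding genes only or after division by its chromosome's relative expression, nor did Bcl2l11 with at least 4000000 counts or all cells. Bok, Bid and Bcl2l1 stood above, and Bcl2l2 below, in every setting run.

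Small differences changed sign. Bcl2 turned to a log2 difference of 0.065 with at least 4000000 counts, 0.015 with all cells, 0.00046 with protein-coding genes, 0.0022 with at least 10000 detected genes (a setting added after seeing the data), and from −0.94 to 0.66 with a line left out. Mcl1 turned to −0.20 without 5ar1 and −0.30 without AF32 and reached 0.875 without AFX6. Bad turned to 0.0034 with at least 2000000 counts and 0.12 with at least 10000 detected genes, and with a line left out ranged from −0.27 to 0.22, with 0.075 without 5ar1. Bik turned to −0.12 without 5ar2 and −0.075 without AF32 and reached 1.57 without AFX6. For these changes with lines left out the number of lines is smaller by construction, and the cause of the others was not tested. Each of these members had overlapping groups. On medians over single cells in place of sums, the log2 differences of Bok, Bid, Bcl2l11, Bcl2l1, Bad and Bak1 were 6.16, 7.14, 4.23, 1.32, 0.55 and 0.52, so that Bad again turned. The medians in AFX6 and AF32 were 1.08 and 0.348 CPM for Bok, 0.460 and 0.195 CPM for Bid and 1.81 and 0.226 CPM for Bcl2l11. These lie near or under the limit of 1 CPM, so the sizes of these large differences are ratios to values near the floor. Of the members' folds of AF32 over AFX6, 64 values moved past counting error and 43 did not, and all kept their sign. On the log2 scale Bok ranged from −1.63 to −0.033, Bcl2l11 from −3.00 to −0.27, Bid from −1.24 to −0.20, Bad from 0.44 to 2.65 and Bcl2 from −1.21 to −0.74. The lowest values of Bok, Bcl2l11 and Bid came from medians over single cells that lie near the floor. The number of members per cell, and the number of members held by more FS cells, stayed within 1.5 times in every alternative run. Depth limits shares of cells: a level under 0.993 CPM could not be told from 0 in the shallowest kept cell.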

Other observations

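The 58 cells with fewer than 3000000 counts, left out above, include 30 of AFX6. In the summed counts of these 30 cells Bcl2l1 stood at 4.26 CPM, against 46.8 CPM in the 66 kept cells, and Bak1 at 2.85 CPM against 14.4 CPM. Mcl1 stood at 56.0 CPM against 82.0 CPM and Bad at 9.79 CPM against 18.5 CPM. Bcl2l11 stood at 38.8 CPM against 23.9 CPM, Bik at 11.6 CPM against 6.41 CPM and Bax at 377 CPM against 240.1 CPM, while Bok, at 33.6 CPM against 30.9 CPM, and Bid, at 34.2 CPM against 30.6 CPM, lay close. Bcl2l2 stood at 0.888 CPM against 4.87 CPM and Bcl2 at 6.16 CPM against 11.2 CPM. The direction differed between lines: in the 6 such cells of 5ar2 Bcl2l1 stood at 136.9 CPM against 54.1 CPM in kept cells and Bad at 48.0 CPM against 24.2 CPM, and in the 16 of AF32 Bcl2l1 stood at 27.2 CPM against 33.0 CPM and Bad at 53.9 CPM against 26.8 CPM. The 30 cells of AFX6 had 49521342 counts together, the 16 of AF32 28791025 and the 6 of 5ar2 9912813. Of these sets, the values of 5ar2 thus rest on the fewest cells and counts. Cells of a line are not replicates of a condition.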
